A study of Homo sapiens with 15 samples.

Results

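Native exon junction complexes were compared by the core protein through which they were purified. In 2 libraries, MAGOH-CASC3 and MAGOH-RNPS1, FLAG-tagged MAGOH was pulled down first and the peripheral protein CASC3 or RNPS1 second. In the other 2, CASC3-EIF4A3 and RNPS1-EIF4A3, the FLAG-tagged peripheral protein was pulled down first and the core protein EIF4A3 second. These 4 libraries, of 15 in the series, were chosen by their antibodies and their native lysis, and each peripheral protein gives a pair with 1 library on the MAGOH side and 1 on the EIF4A3 side. The host of every library was the human embryonic kidney line HEK293 Flp-In Trex, given neither formaldehyde nor cycloheximide, and its extracts were made in an isotonic buffer that does not denature proteins. RNA left after RNase I digestion was sequenced, and the authors' counts per transcript and per exon were used. MAGOH-CASC3 had 1521092 transcript counts, MAGOH-RNPS1 3135860, CASC3-EIF4A3 935667 and RNPS1-EIF4A3 2232968, so the MAGOH library was the deeper of each pair. Another native library, MAGOH-EIF4A3 with 4503784 counts, shares the FLAG-MAGOH line with the MAGOH side and the EIF4A3 antibody with the EIF4A3 side. It is in neither side and is given beside the results as a value.

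The exon junction complex is placed on messenger RNA by the spliceosome, a short distance upstream of the junction between joined exons. EIF4A3, a DEAD-box ATPase, clamps the RNA, and the heterodimer of MAGOH and RBM8A locks the clamp. CASC3 and RNPS1 bind the outside of this core, RNPS1 in complexes with splicing regulators and CASC3 in complexes linked to later, cytoplasmic steps. The complex guides nuclear export, translation and nonsense-mediated decay until ribosomes remove it. EIF4A3 and MAGOH are parts of the same core, so the comparison asks whether both handles recover footprints on the same RNAs.

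The sides differ in the tagged protein, in the stable line (FLAG-MAGOH against FLAG-CASC3 or FLAG-RNPS1), in which protein was pulled first and in the second antibody, and these cannot be told apart in the 4 libraries. Each line is represented as the labels give it, and nothing says that libraries came from separate cultures, so a p-value measures only the spread between these samples. Differences are between shares of a library and are log2 values, MAGOH minus EIF4A3 side, scaled by TMM. On CPM, a library's counts scaled to a total of 1000000, before centring the median transcript was at -0.10 in the CASC3 pair and -0.18 in the RNPS1 pair, so a difference of 0 means the median transcript and not equal CPM. Of 8 markers of HEK293 cells, 7 were tested and 0 differed by edgeR's quasi-likelihood test, and none of the markers of liver, blood, epidermis, astrocytes, heart or islets had enough counts to be tested.

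The sequences that carry the comparison are exons whose share of counts moved most between the sides. They are the 3 wholly coding internal exons of 60 to 150 bases with the smallest p in each direction, 1 per gene, with a mean count of at least 20, out of 579 higher and 640 lower exons of that kind. The rule was set after the values were seen. Each is printed 5′ to 3′ from the GENCODE v29 transcript (hg38), and the capitals mark the stretch from 40 to 10 bases before the exon's 3′ end, where the canonical complex sits. The first 3 were higher on the MAGOH side.
PIEZO1 exon 3: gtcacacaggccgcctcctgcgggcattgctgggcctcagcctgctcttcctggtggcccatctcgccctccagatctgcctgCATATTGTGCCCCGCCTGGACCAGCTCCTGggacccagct
HUWE1 exon 27: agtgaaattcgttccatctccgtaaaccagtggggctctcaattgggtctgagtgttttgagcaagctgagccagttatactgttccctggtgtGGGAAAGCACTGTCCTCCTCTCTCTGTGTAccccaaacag
PCNT exon 23: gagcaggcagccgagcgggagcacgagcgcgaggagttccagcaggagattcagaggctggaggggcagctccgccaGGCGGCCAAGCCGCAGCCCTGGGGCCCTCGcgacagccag
The other 3 were lower on the MAGOH side.
RPL5 exon 7: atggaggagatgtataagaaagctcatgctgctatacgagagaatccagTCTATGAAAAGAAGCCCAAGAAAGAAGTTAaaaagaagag
NAP1L1 exon 3: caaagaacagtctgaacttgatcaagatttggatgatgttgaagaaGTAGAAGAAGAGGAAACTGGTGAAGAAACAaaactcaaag
NPM1 exon 7: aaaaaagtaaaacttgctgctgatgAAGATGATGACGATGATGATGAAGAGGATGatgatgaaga

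PIEZO1 exon 3 (chr16:88742300-88742422, minus strand), from a mechanically gated cation channel, is 66.7% G or C. It had 81 and 291 counts in MAGOH-CASC3 and MAGOH-RNPS1 against 11 and 30 in CASC3-EIF4A3 and RNPS1-EIF4A3, a difference of 2.53 ± 0.38 (SE). HUWE1 exon 27 (chrX:53603368-53603501, minus strand), from a ubiquitin ligase, is 50% G or C. Its counts were 50 and 133 against 7 and 11, a difference of 2.69 ± 0.43, and it stayed as large, at 2.97, in a fit with each library's trend on GC content removed (the GC correction). PCNT exon 23 (chr21:46398014-46398130, plus strand), from the centrosome scaffold pericentrin, is 72.6% G or C and had 129 and 214 counts against 18 and 27. In CPM, both MAGOH-side libraries lay above both EIF4A3-side libraries for all 3 exons, and for 28.6% of all tested exons. These 3 were picked by p in the same libraries, so this is not separate support.

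RPL5 exon 7 (chr1:92840551-92840639, plus strand), from a protein of the large ribosomal subunit, is 38.2% G or C. It had 68 and 80 counts on the MAGOH side against 304 and 506 on the EIF4A3 side, a difference of -3.04 ± 0.35, and -1.99 with the GC correction. NAP1L1 exon 3 (chr12:76068909-76068994, minus strand), from a histone chaperone, is 36% G or C and had 37 and 11 counts against 81 and 117. NPM1 exon 7 (chr5:171392914-171392978, plus strand), from the nucleolar chaperone nucleophosmin, is 35.4% G or C and had 67 and 31 counts against 126 and 212. It encodes part of the acidic stretch of the protein, and its difference was -2.43 ± 0.36, or -1.22 with the GC correction. A made up 43.1 to 45.4% of the bases of these 3 exons and C 6.15 to 12.4%, whereas C made up 25.4 to 40.6% of the 3 higher ones.

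Over all transcripts the sides differed by the base composition of what they held. Transcripts higher on the MAGOH side were GC-rich and transcripts lower on it were GC-poor. By edgeR's quasi-likelihood test with the peripheral protein as a block, 1225 of 12572 tested transcripts were higher (9.74%) and 1158 lower (9.21%) at a Benjamini-Hochberg adjusted p under 0.05. The median GC content was 59.8% in the higher transcripts, 41.0% in the lower ones and 49.8% in all tested. Only 7.46% of the lower transcripts had a GC content above 50%, against 88.6% of the higher ones. In fits without the block, 733 transcripts passed with all 4 libraries, 189 without MAGOH-CASC3, 1 without MAGOH-RNPS1, 3748 without CASC3-EIF4A3 and 2386 without RNPS1-EIF4A3. The DESeq2 Wald test called 423. With all 13 footprint libraries of the series in the edgeR fit 0 passed, with 951 at an unadjusted p under 0.05. The count of calls is therefore not stable.

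Transcripts were ranked by GC content and divided into 10 classes of equal size, and the median of the fitted difference climbed from each class to the next. In the lowest class, of 29.5 to 39.1% GC, the median difference was -0.63, and 389 of 1251 transcripts were lower and 4 higher. In the highest class, of 62.7 to 83.9% GC, the median was 0.53, and 366 of 1251 were higher and 2 lower. Each pair showed it alone: from the lowest to the highest class the median went from -0.44 to 0.27 in the CASC3 pair and from -0.69 to 0.73 in the RNPS1 pair. Across 12502 transcripts with a known GC content, Pearson's r with the difference was 0.36 in the CASC3 pair and 0.64 in the RNPS1 pair. Transcripts are not independent replicates, and all of them share the same libraries and depth. The pairs' differences correlated with each other at r = 0.55, and 72.5% of transcripts had the same sign in both.

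**Figure D1:**
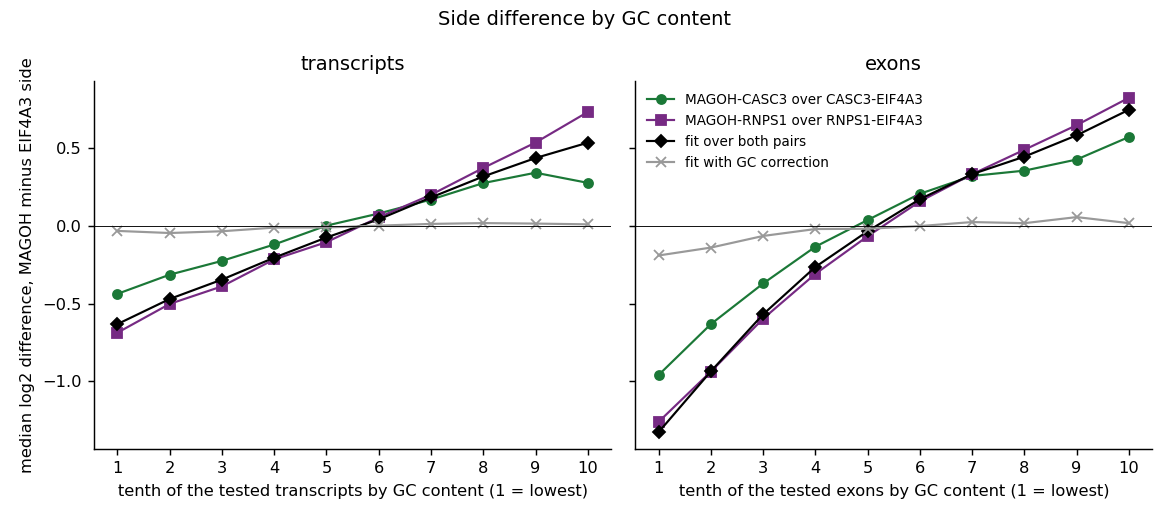
Median log2 difference (MAGOH minus EIF4A3 side) of the tested transcripts (left) and exons (right) in 10 classes by GC content, for each pair alone, for the fit over both pairs and for the fit with GC correction. Both pairs climb from below 0 in the lowest class to above 0 in the highest, more steeply for exons, and the corrected fit stays between -0.19 and 0.05.

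Exons showed the same trend more steeply. Of 51477 tested exons, 4135 were higher on the MAGOH side (8.03%) and 5696 lower (11.1%). The higher exons had a median GC content of 65.3% and the lower ones of 41.0%, against 55.8% in all tested exons. Without the block and MAGOH-RNPS1, 134 exons passed, and after thinning to the smallest library 0 passed, with 6861 at an unadjusted p under 0.05 by edgeR. The lowest of 10 classes by GC content had a median difference of -1.33 with 5 exons higher and 2541 lower, and the highest had a median of 0.74 with 1357 higher and 10 lower. The GC content weighted by counts was 57.8% in MAGOH-CASC3, 58.4% in MAGOH-RNPS1, 54.2% in CASC3-EIF4A3 and 53.2% in RNPS1-EIF4A3. The ranges of the sides do not overlap. With 2 libraries a side an exact two-sided permutation test cannot go below p = 0.333, so no test of this value is given. Replicates with the same label elsewhere in the series also differed in it. They were at 55.3 and 56.9% in crosslinked CASC3-EIF4A3 and 54.1 and 56.1% in crosslinked RNPS1-EIF4A3. With cycloheximide they were at 46.5 and 48.0% for CASC3-EIF4A3 and 47.9 and 56.3% for RNPS1-EIF4A3.

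The trend also held between exons of the same transcript. In 3552 transcripts with at least 5 tested exons, the GC-richest exon was above the GC-poorest by a median of 1.22, and above it in 90.1% of transcripts, over a median gap of 23.8 percentage points of GC. A transcript's own level is shared by its exons, but their place in the transcript is not. First exons had a median GC content of 69.9%, against 54.4% for internal exons, and place was not held fixed here. Among 38554 exons of at least 100 bases that lie before a junction, r of the difference with GC content was 0.68 for the whole exon, 0.57 for the stretch from 40 to 10 bases before the exon end, and 0.51 for the first 30 bases. Splitting exons by the GC content outside their last 40 bases, at about equal GC in that stretch, moved the median difference by 0.27 to 0.82. The reverse split, by the GC of the stretch at about equal GC elsewhere, moved it by 0.13 to 0.38.

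By place in the transcript, first exons were the group that gained most on the MAGOH side. They took 15.6% of the counts of MAGOH-CASC3 and 17.1% of MAGOH-RNPS1, against 10.6% of CASC3-EIF4A3 and 11.4% of RNPS1-EIF4A3. Of 6442 tested first exons 1286 were higher and 92 lower, with a median difference of 0.54, whereas of 38410 internal exons 2511 were higher and 4754 lower, with a median of -0.07. First exons were also the GC-rich class, with a median GC content of 69.9% against 54.4% for internal exons. At 60 to 70% GC the median difference was 0.37 in first and 0.52 in internal exons, and at 70 to 80% GC it was 0.75 and 0.71. Internal exons of 40 to 50% GC had a median of -0.76. With the GC correction, 94 of the 6442 first exons were higher and 114 lower, and of the internal exons 678 were higher and 340 lower. Over all tested exons 8.03% were higher and 11.1% lower, and with the correction 1.79 and 0.98%.

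Exons matched to GENCODE v29 and above a limit on level were ranked by p, 1 per gene. The 5 with the smallest p among the higher ones were all first exons, of 69.4 to 75.8% GC. They belong to RELN, to the lipid kinase gene PI4KA, to the ubiquitin ligase gene HECTD4, to NBEA, which encodes a membrane trafficking scaffold, and to SMG1, the kinase of nonsense-mediated decay. PI4KA exon 1 (chr22:20858570-20858812) had 124 and 316 counts on the MAGOH side against 10 and 28 on the EIF4A3 side, a difference of 2.95 ± 0.38. HECTD4 exon 1 had 240 and 569 against 19 and 65, and NBEA exon 1 had 195 and 419 against 22 and 38. SMG1 exon 1 had 151 and 297 against 9 and 39; SMG1 has near-identical copies in the genome, and how the counting treated them is not given in the sources used here. All 5 kept an adjusted p under 0.05 with the GC correction, with differences of 1.96 to 2.39. A PIEZO1 exon without a match (chr16:88784901-88785211) had a smaller adjusted p than any of them, 1.1e-09 against 2.7e-09 for RELN by edgeR. It had 269 and 687 counts against 26 and 55, and no GC content was assigned to it.

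By the same ranking, the 5 exons with the smallest p among the lower ones were at 28.9 to 38.2% GC. They were the last exon of TAOK1, exon 7 of RPL5, exon 2 of the zinc finger gene ZNF711, exon 3 of NAP1L1 and the last exon of RPL17, another protein of the large ribosomal subunit. ZNF711 exon 2, in the 5′ UTR, had 50 and 106 counts against 139 and 523, a difference of -2.53 ± 0.35. RPL17 exon 7 had 33 and 47 against 110 and 185, a difference of -2.48 ± 0.35. With the GC correction neither of these passed (adjusted p = 0.052 and 0.121 by edgeR), while TAOK1, RPL5 and NAP1L1 did.

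Within transcripts, the sides used different exons in 777 of 7463 transcripts (10.4%; edgeR's diffSpliceDGE, Simes adjusted p under 0.05). Of the exons that were used more on the MAGOH side, 406 of 549 were first exons, at a median GC content of 69.6%. Of those used less, 878 of 945 were internal exons, at a median of 41.8%. Of all 48604 exons in this test, 5480 were first and 37714 internal exons, and the median GC content was 55.6%. With the GC correction 8 transcripts were left (0.108%), of which 7 were among the 777. Without the block and any 1 library, from 1 (without MAGOH-RNPS1) to 75 (without MAGOH-CASC3) transcripts passed. PCNT shows both kinds of exon in 1 transcript: exon 46 had 12 and 41 counts on the MAGOH side against 23 and 87, and exon 25 had 29 and 32 against 34 and 45, while exon 23, printed above, moved the other way. LRPPRC, a mitochondrial RNA-binding protein, had 58 and 197 counts in exon 1 against 6 and 27, but 6 and 12 in exon 2 against 12 and 50. In RPL19, a ribosomal protein gene, exon 1 had 65 and 183 counts against 22 and 31, and the gene passed with the GC correction too (adjusted p = 0.021). SUGP2, which encodes a splicing-related protein, also passed (adjusted p = 0.00022), through exon 10 with 25 and 33 counts against 34 and 89.

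Before the named transcripts, the complex's own genes check the labels. MAGOH (chr1:53226892-53238610, minus strand on hg38) had 170 CPM in MAGOH-CASC3, 84.8 in MAGOH-RNPS1, 40.6 in CASC3-EIF4A3 and 28.7 in RNPS1-EIF4A3. The FLAG-MAGOH libraries lay above the others, with a difference of 1.93 ± 0.21 (adjusted p = 0.0016 by edgeR). MAGOH-EIF4A3, from the same line, was at 164 CPM. Exons 1 to 3 held 98.5 and 94.4% of the MAGOH counts on the MAGOH side and 92.1 and 92.2% on the EIF4A3 side, and the 4th and 5th exons together held at most 15 counts in any of the 4 libraries. RNA of the FLAG-MAGOH transgene may be among these counts; its part was not tested. RNPS1 was lower on the MAGOH side, at 218 and 201 CPM against 357 in CASC3-EIF4A3 and 522 in RNPS1-EIF4A3 (-0.92 ± 0.20, adjusted p = 0.012), with the largest value in the line that carries FLAG-RNPS1. CASC3, EIF4A3, RBM8A and MAGOHB did not pass: their differences were -0.09, -0.13, -0.62 and -0.49. CASC3 had 329 CPM in CASC3-EIF4A3, the FLAG-CASC3 line, 239 and 234 on the MAGOH side and 234 in RNPS1-EIF4A3.

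**Figure D2:**
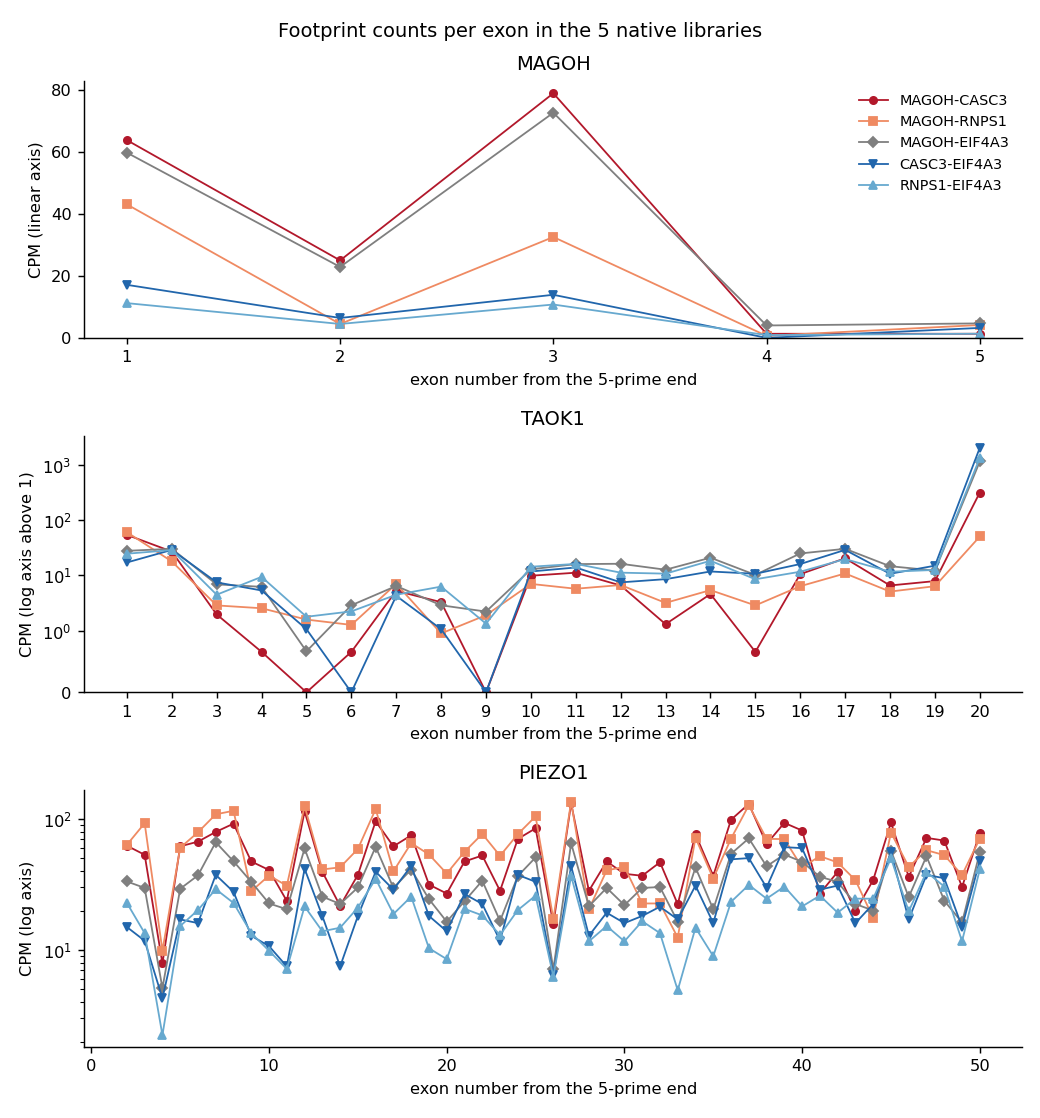
CPM in each exon of MAGOH, TAOK1 and PIEZO1 (numbered exons, from the 5′ end) in the 5 native libraries, on the axes stated beside each panel. MAGOH exons 1 and 3 are high in the 3 libraries of the FLAG-MAGOH line, the last exon of TAOK1 is lowest in the MAGOH side's libraries, and most PIEZO1 exons are highest in them.

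The 12 transcripts with the largest differences upward, among those called with a mean log2 CPM of at least 5 and with both libraries of one side above both of the other, were RELN, TENM1, BSN, MAGOH, WNK2, WDR81, DECR2, ALPP, NKX2-1, PIEZO1, VAC14 and DRD4. Their differences were from 1.46 to 3.09, and 9 of the 12 had a GC content of 58.8% or more. TENM1, RELN and MAGOH were at 42.2, 47.0 and 44.8%.

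RELN, which encodes the secreted glycoprotein reelin, had 304 and 240 CPM on the MAGOH side, 80.2 in CASC3-EIF4A3 and 12.5 in RNPS1-EIF4A3, a difference of 3.09 ± 0.40 (adjusted p = 0.0037 by edgeR). Practically all of these counts lay in exon 1 of 64 (chr7:103989131-103989516), a GC-rich exon with 462 and 752 counts on the MAGOH side against 75 and 28. MAGOH-EIF4A3 had 45 counts there, or 9.99 CPM, below all 4 libraries although it comes from the FLAG-MAGOH line. TENM1, a teneurin adhesion protein of the cell surface, had 350 and 334 CPM against 114 and 52.0, a difference of 2.30 ± 0.26. Its counts were spread over the transcript. In 23 of the 25 exons with at least 20 counts over the 4 libraries both MAGOH-side libraries lay above both others. Over all tested exons 28.6% lay so. The exons sum to the total by which TENM1 was picked, so they are not separate support. MAGOH-EIF4A3 had the highest TENM1 level of the 5 native libraries, at 734 CPM.

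BSN, a scaffold of the presynaptic active zone, had 121 and 117 CPM against 44.9 and 22.4 (2.08 ± 0.25). All 6 of its exons with at least 20 counts lay higher on the MAGOH side in both libraries. WNK2, a kinase of the family that regulates ion transport, had 554 and 610 CPM against 248 and 164 (1.67 ± 0.22), and 14 of its exons passed, all upward. PIEZO1, the mechanosensitive channel whose exon 3 is printed above, had the highest level of the 12, at 3075 and 3176 CPM against 1381 and 1046 (1.51 ± 0.24). Of its 51 exons 46 did not overlap between the sides, and 38 passed, all of them higher on the MAGOH side. Over all tested exons 28.6% lay above on the MAGOH side without overlap, and 8.03% were called higher. BSN, WNK2 and PIEZO1 were picked by totals that sum these exons, so the exons are not separate support.

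Among the others, WDR81, which acts in endosome maturation, had 55.9 and 46.9 CPM against 23.5 and 13.9. DECR2, a peroxisomal enzyme of fatty acid oxidation, had 63.8 and 70.8 against 36.3 and 17.5. VAC14, the scaffold of the kinase complex that makes a lysosomal phosphoinositide, had 76.9 and 92.8 against 25.6 and 39.9. DRD4, a dopamine receptor of 4 exons and 73.2% GC, had 61.8 and 64.4 against 25.6 and 25.1; its difference of 1.46 became 0.78 with the GC correction and no longer passed (adjusted p = 0.053 by edgeR), while the other 11 did. NKX2-1, a transcription factor of lung and thyroid, had 45.4 and 74.9 CPM against 31.0 and 19.3, mainly in exon 3. ALPP, placental alkaline phosphatase, had 49.3 and 59.0 against 22.4 and 20.2; it has close paralogs, so its counts are uncertain.

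**Figure D3:**
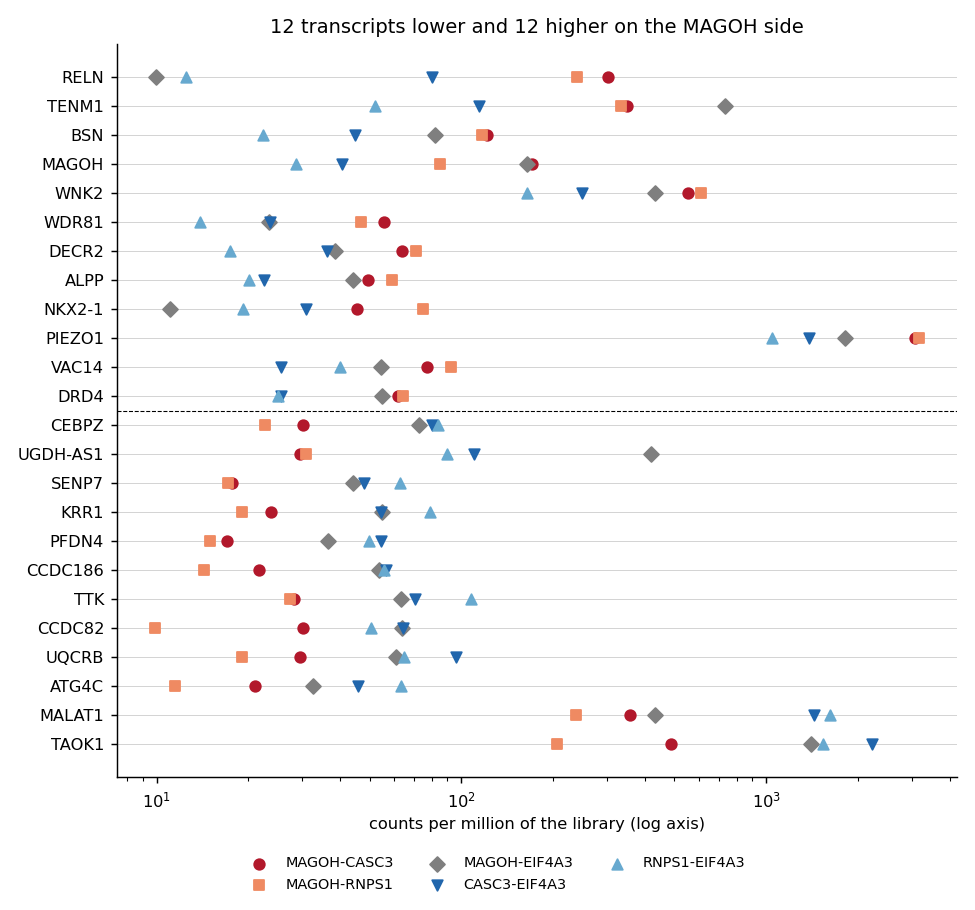
CPM, on a log axis, of the 12 transcripts furthest up (above the dashed line) and the 12 furthest down on the MAGOH side, 1 symbol per native library. Only transcripts whose sides do not overlap were eligible. The MAGOH-EIF4A3 library (diamonds) lies near or above the MAGOH side for MAGOH, TENM1, ALPP and DRD4. It lies between the sides for others such as BSN, WNK2 and PIEZO1, and below both for RELN and NKX2-1. For most of the lower 12 it lies with the EIF4A3 side.

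By the same limits on level and overlap, the 12 transcripts furthest down were TAOK1, MALAT1, ATG4C, UQCRB, CCDC82, TTK, CCDC186, PFDN4, KRR1, SENP7, UGDH-AS1 and CEBPZ. All had a GC content between 33.9 and 42.8%, and their differences were from -1.54 to -2.41. SNHG6, the host of a small nucleolar RNA, was lower still, at -2.46, but was under the limit on level. With the GC correction all but CCDC82 (adjusted p = 0.065 by edgeR) still passed.

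TAOK1, a kinase upstream of stress-activated MAP kinases, had 486 and 206 CPM on the MAGOH side against 2217 and 1540, a difference of -2.41 ± 0.23 (adjusted p = 0.0010 by edgeR). The last exon, 20 (chr17:29542561-29551904), is 9344 bases long, mostly 3′ UTR, and held 64.6 and 24.4% of the TAOK1 counts on the MAGOH side against 91.0 and 85.8% on the EIF4A3 side. Its counts were 477 and 158 against 1887 and 2952, a difference of -3.71 ± 0.41. TAOK1 exon 1, at 76.2% GC, moved the other way relative to the rest of the transcript, with 82 and 189 counts against 16 and 55. Footprints of this last exon lie after the final junction, away from where the complex is deposited.

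MALAT1 (chr11:65497762-65506469), an unspliced nuclear noncoding RNA of 1 exon, had 358 and 237 CPM on the MAGOH side against 1437 and 1623 (-2.26 ± 0.23, adjusted p = 0.0013). It has no exon junction. In the 2 RNA-seq libraries of the series MALAT1 was at 7992 and 7259 CPM, above all 4 footprint libraries.

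TTK, a kinase of the spindle checkpoint, had 28.3 and 27.4 CPM against 70.5 and 107.5 (-1.56 ± 0.23). UQCRB, a subunit of respiratory complex III, had 29.6 and 19.1 against 96.2 and 64.9, and PFDN4, a subunit of the prefoldin chaperone, had 17.1 and 14.99 against 54.5 and 49.7. KRR1, needed for assembly of the small ribosomal subunit, had 23.7 and 19.1 against 54.5 and 78.8. In KRR1 5 exons passed, all downward, where 11.1% of all tested exons were lower. KRR1 was picked by the total of these exons, so they are not separate support. CEBPZ, a nucleolar protein, had 30.2 and 22.6 against 80.2 and 83.8. ATG4C is a protease of autophagy and SENP7 removes SUMO chains; their differences were -1.74 and -1.55. CCDC82 and CCDC186, named for coiled coils, were at -1.58 and -1.56. UGDH-AS1, a noncoding RNA antisense to UGDH, had 29.6 and 30.9 CPM against 110 and 89.6, nearly all in its last exon. Whether counting used the strand is not given in the sources used here, so its reads cannot be told apart from those of an overlapping gene on the other strand.

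Ribosomal protein genes were lower on the MAGOH side in most of their tested transcripts. Of 50 tested transcripts of the large subunit 31 were lower and 0 higher, with a median of -0.76. Of 32 of the small subunit 17 were lower and 0 higher, with a median of -0.57; over all tested transcripts the median was -0.01. The lower members made up 62.0 and 53.1% of the lists, against 9.21% of all tested transcripts. Their GC content was near that of all transcripts, at medians of 48.0 and 49.8%, and with the GC correction 28 and 16 were lower and the medians were -0.68 and -0.57. RPL31 had 399 and 220 CPM against 1035 and 840 (-1.52 ± 0.20), RPL5 779 and 502 against 2450 and 1576, and RPL36A 124 and 87.1 against 375 and 257. In the small subunit, RPS27 had 235 and 156 CPM against 569 and 438. The summed level of the large-subunit list was 15460 and 12410 CPM on the MAGOH side against 30490 and 23180. Ribosomal protein genes have many processed pseudogenes, and how reads shared with them were counted is not given in the sources used here.

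Translation factors were lower in 11 of 43 (25.6%) and higher in 0 (median -0.41), among them EIF1, which acts in start codon selection (117 and 104 CPM against 210 and 209), and EEF1B2, an elongation factor subunit (46.0 and 52.0 against 107.9 and 94.5). Of 73 mitochondrial ribosomal proteins 5 were lower and 1 higher (median -0.29). Of 56 genes of oxidative phosphorylation 7 were lower and 0 higher (-0.22), such as NDUFS5 of complex I, with 44.7 and 27.1 CPM against 88.7 and 75.2. Of 34 proteasome genes 5 were lower and 0 higher (-0.22), and of 49 genes of the secretory pathway 7 were lower and 2 higher (-0.16). The lower members were 6.85% of the mitochondrial ribosomal list, under the 9.21% of all tested transcripts, and 12.5 to 14.7% of the lists of oxidative phosphorylation, proteasome and secretory genes, above it.

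Heat shock and chaperone genes were lower in 11 of 25 tested transcripts (44.0%, against 9.21% of all) and higher in 0, with a median of -0.57. HSPA8, the constitutive cytosolic HSP70, had 248.5 and 161 CPM against 479 and 377, and HSPD1, the mitochondrial chaperonin, 191 and 130 against 356 and 296.5. Mitosis genes were lower in 15 of 26 (57.7%) and higher in 0, with a median of -0.69; their median GC content was 43.2%. CENPE, the kinetochore motor, had 122 and 99.5 CPM against 266 and 271, and KIF11, the motor that separates spindle poles, 88.8 and 62.2 against 184 and 206. With the GC correction 5 of each list were lower, and the medians were -0.39 and -0.47; CENPE was at -0.48 and no longer passed (adjusted p = 0.082 by edgeR). Of 30 DNA replication genes 5 were lower (16.7%) and 3 higher (10%, near the 9.74% of all tested transcripts), with a median of -0.19. RFC1, the large subunit of the clamp loader, had 65.1 and 52.6 CPM against 126 and 130, whereas the helicase subunit MCM5 had 343 and 379 against 192 and 292 and did not pass with the GC correction (adjusted p = 0.096).

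Of the nuclear long noncoding RNAs 5 of 11 were lower (45.5%) and 0 higher, with a median of -0.88, the lowest of any list with at least 5 tested members. Beside MALAT1, the scaffold RNA of paraspeckles NEAT1 had 81.5 and 83.9 CPM against 282 and 181 (-1.29 ± 0.21). KCNQ1OT1, the imprinted antisense RNA of KCNQ1, had 65.7 and 60.6 against 131.5 and 124. Host RNAs of small nucleolar RNAs were lower in 6 of 21 (28.6%) and higher in 2, and SNHG8 stood at 5.26 and 2.23 CPM against 14.96 and 17.02. Of 24 natural targets of nonsense-mediated decay 7 were lower (29.2%) and 2 higher: ASNS, asparagine synthetase, had 137 and 137 CPM against 283 and 341, and ZFAS1 had 50.6 and 41.1 against 94.0 and 93.6. Zinc finger genes, a GC-poor list with a median of 43.5%, were lower in 52 of 391 (13.3%, against 9.21% of all tested transcripts) and higher in 22, with a median of -0.37 that became -0.19 with the GC correction. Small noncoding RNAs were lower in 6 of 48 (12.5%) and higher in 4, and their median had opposite signs in the pairs (-0.23 for CASC3, 0.09 for RNPS1).

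Among genes of RNA processing, hnRNP proteins were lower in 6 of 28 (21.4%), core spliceosome genes in 7 of 34 (20.6%) and genes with detained introns in 3 of 17 (17.6%), against 9.21% of all tested transcripts and each with 0 higher. With the GC correction 2, 3 and 1 of them were lower, and 1 hnRNP gene and 2 with detained introns were higher. SR proteins were lower in 1 of 14 (SRSF5, 149 and 130 CPM against 233 and 307). HNRNPD, an AU-rich element binding protein, had 149 and 124 CPM against 266 and 335. CLK1, a kinase of SR proteins, had 36.2 and 34.4 against 66.3 and 86.4, and did not pass with the GC correction (adjusted p = 0.115). Of 12 decay factors 3 were higher (25%, against 9.74% of all tested transcripts) and 1 lower (median 0.25, and -0.03 with the GC correction). SMG5, SMG6 and the helicase DHX34 were higher: SMG5 had 490 and 552 CPM against 262 and 348, and SMG6, the endonuclease, 183 and 180.5 against 106 and 118. DHX34 did not pass with the GC correction (adjusted p = 0.137). In the list of peripheral complex proteins, ALYREF, an export adaptor, was higher (114 and 115 CPM against 88.7 and 77.5; adjusted p = 0.227 with the GC correction) and RNPS1 lower, of 10. Immediate early genes were lower in 2 of 24 (8.33%), and histones of the replication-dependent type were lower in 2 and higher in 2 of 38 (5.26% each), shares under those of all tested transcripts.

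The lists with the highest medians hold genes of large proteins with many exons. Of 23 genes of the extracellular matrix and adhesion 10 were higher (43.5%, against 9.74% of all tested transcripts) and 1 lower, with a median of 0.49; with the GC correction 7 were higher and the median was 0.30. LAMA5, a laminin chain of basement membranes, had 2635 and 2636 CPM against 1200 and 1030 (1.38 ± 0.22), and HSPG2, perlecan, had 966 and 869 against 478 and 333. In a list of giant proteins (cytoskeletal, motor and others), 9 of 24 were higher (37.5%) and 1 lower, with a median of 0.48. VPS13D, a lipid transfer protein, had 556 and 476 CPM against 221 and 259, UBR4, a ubiquitin ligase, 2240 and 2103 against 1117 and 1129, and FLNA, the actin crosslinker filamin A, 1610 and 1572 against 916 and 804. The median of the list was 0.59 with the GC correction, and 11 were then higher, FLNA not among them (adjusted p = 0.052 by edgeR). Of 31 chromatin remodelers and methyltransferases 5 were higher (16.1%) and 1 lower, with a median of 0.29 (0.07 in the CASC3 pair and 0.41 in the RNPS1 pair); with the GC correction 1 was higher. KMT2D, a histone methyltransferase, had 2999 and 2831 CPM against 2263 and 986, and did not pass with the GC correction (adjusted p = 0.067 by edgeR).

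**Figure D4:**
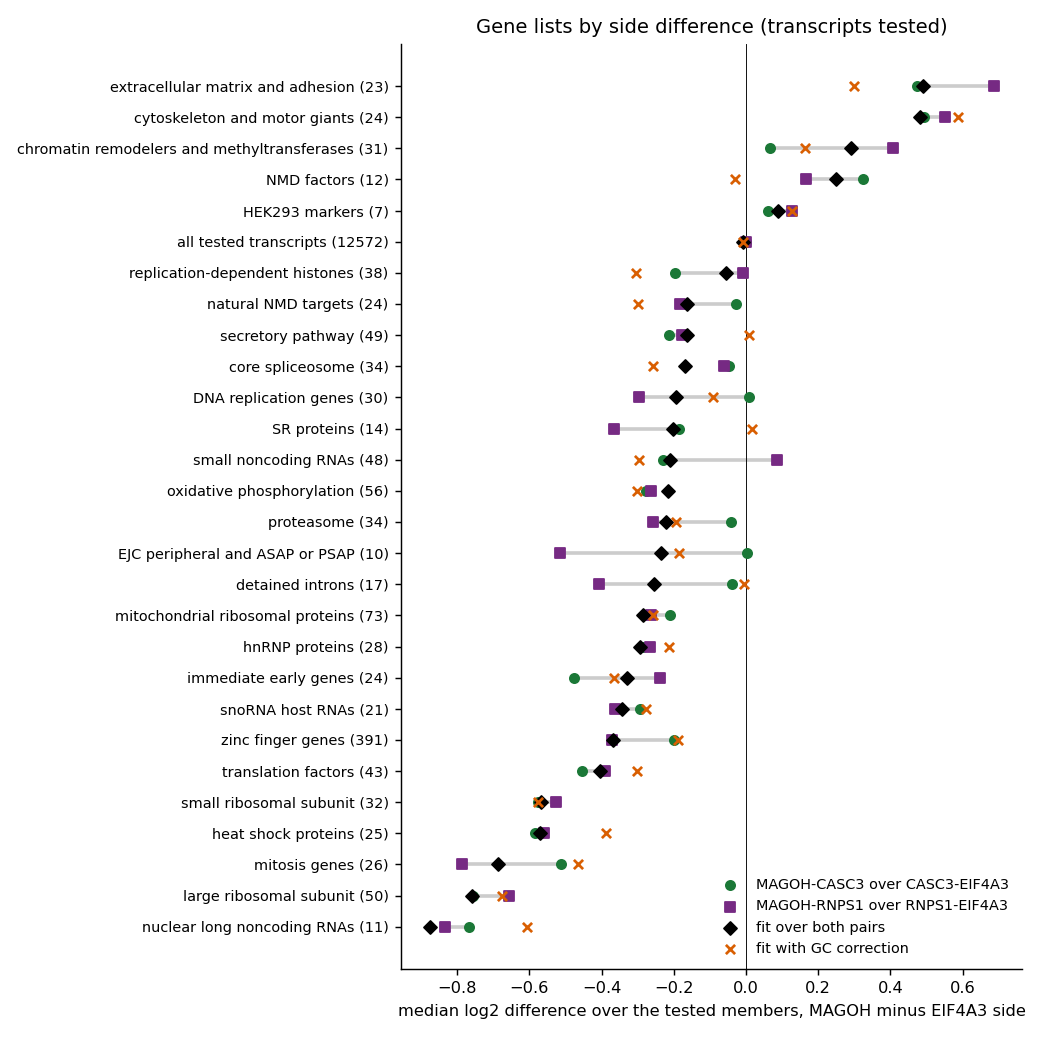
Median log2 difference of the tested members of each list with at least 5 of them (number in brackets), for each pair, for the fit over both pairs and with the GC correction. Ribosomal proteins, nuclear long noncoding RNAs, mitosis and heat shock genes lie at the bottom. Extracellular matrix genes and the list of cytoskeletal, motor and other giants lie at the top.

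The GC correction left 576 transcripts higher (4.61% of 12502) and 406 lower (3.25%), 7.85% in all. Of these, 400 and 307 were also called without the correction. The median GC content of the corrected sets was 48.8 and 48.5%. The correction removes the trend on GC content, so this likeness is no separate result. The sets differed in size. Corrected higher transcripts had a median of 18 exons and 6488 bases, corrected lower ones 6 exons and 1902 bases, against 9 exons and 3154 bases in all 12502; 11.1% of the lower set had a single exon, against 0.69% of the higher set. For exons, 912 were higher (1.79% of 50918) and 499 lower (0.98%), 2.77% in all, which turns the split from more lower calls to more higher ones.

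The fitted difference climbed with the number of exons. In the RNPS1 pair alone it did not climb at the low end, with medians of -0.01 in single-exon transcripts and -0.08 in those with 5 to 9 exons. Of 352 single-exon transcripts 18 were higher and 51 lower, and their median was -0.22 (-0.42 with the GC correction, with 4 higher and 45 lower). By pair that median was -0.42 for CASC3 and -0.01 for RNPS1. In the class of 33 or more exons the pairs were at 0.39 and 0.36. Of 493 transcripts with 33 or more exons 161 were higher and 22 lower, with a median of 0.38, and 129 and 3 with the GC correction. Over all tested transcripts 9.74% were higher and 9.21% lower, and with the GC correction 4.61 and 3.25%. Transcripts with 33 or more exons took 16.7 and 16.3% of the counts on the MAGOH side and 12.6 and 11.9% on the EIF4A3 side. Transcripts of a single exon took 1.71 and 1.48% against 2.70 and 2.18%. Exon number and length go together: with GC content and length both removed, the medians were 0.12 in the class of 33 or more exons, with 49 higher and 15 lower, and -0.31 in single-exon transcripts, with 7 higher and 39 lower.

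The MAGOH-EIF4A3 library, which shares a feature with each side, did not fall with the same side for all of these patterns. By composition it lay with the EIF4A3 side. Exons under 45% GC took 24.6% of its counts, against 14.3 and 12.7% on the MAGOH side and 24.7 and 27.1% on the EIF4A3 side. Exons of 60% GC or more took 32.7%, against 45.7 and 47.8% on the MAGOH side and 33.9 and 29.7% on the EIF4A3 side, and its first exons took 10.2%. By exon number it lay with the MAGOH side or beyond it: transcripts with 33 or more exons took 17.9% of its counts and single-exon transcripts 1.17%.

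**Figure D5:**
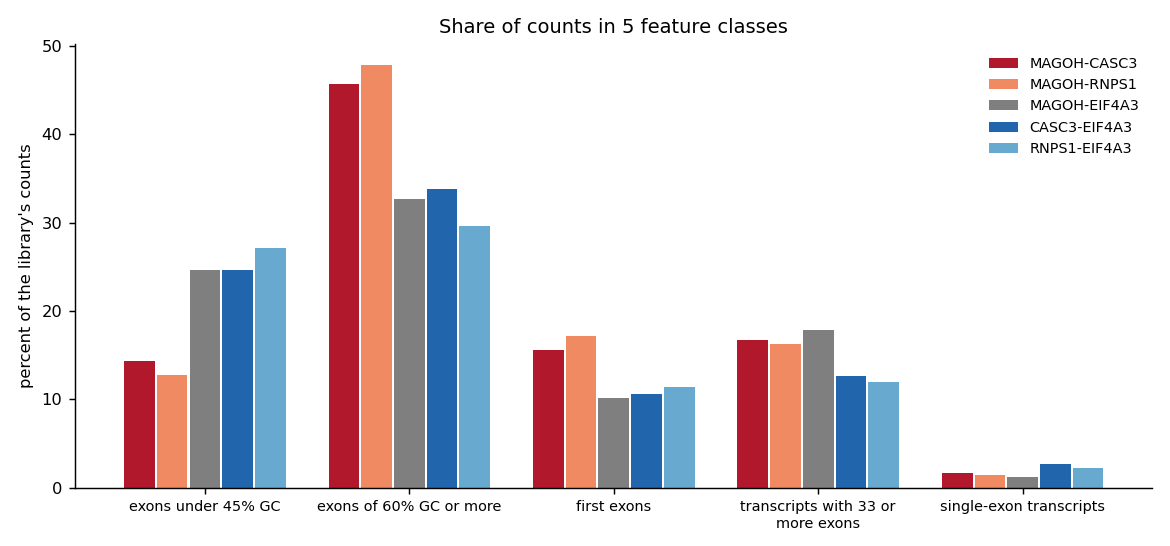
Percent of each native library's counts in exons under 45% GC, exons of 60% GC or more, first exons, transcripts with 33 or more exons and single-exon transcripts, 1 bar per library. MAGOH-EIF4A3 (grey) is level with the EIF4A3 side (blue) in the first 3 classes and with or beyond the MAGOH side (red) in the last 2.

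The called transcripts and the lists were also described by whether MAGOH-EIF4A3 was nearer to the mean of 1 side or of the other in centred log2 CPM. Of transcripts higher on the MAGOH side it was nearer to that side in 919 of 1225, in 475 of the 576 called with the GC correction, and in 565 of the 817 called only without it (69.2%). Of the lower transcripts it was nearer to the EIF4A3 side in 829 of 1158, in 202 of 406 with the correction, and in 643 of the 846 called only without it; over all tested transcripts it was nearer to the MAGOH side in 49.0%. Of the 15 mitosis genes called lower it was nearer to the EIF4A3 side in all 15, with CENPE at 385 CPM and KIF11 at 169. Of the 31 large-subunit and 17 small-subunit genes called lower it was nearer to the MAGOH side in 22 and 12, and the summed level of the small-subunit list was 6389 CPM in it, against 8063 and 6415 on the MAGOH side and 15160 and 11160 on the EIF4A3 side. MALAT1 at 430 CPM and NEAT1 at 62.0 also lay by the MAGOH side, and so did 9 of the 10 called genes of the list of giant proteins. TAOK1, at 1397 CPM, lay by the EIF4A3 side. This is 1 library with no replicate, and its depth is the highest of the 5; which shared feature goes with which pattern was not tested.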

How the data were processed

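Per the submitters' processing notes, the tools were cutadapt 1.16, TopHat2 2.1.1 and bedtools, and the genome build was hg38. The deposited values are whole-number counts per transcript and per exon, given by the authors. Which annotation, strand setting and treatment of shared reads they used is not given in the sources used here. Reads were PCR-amplified without molecular identifiers in the table, so counts carry counting error only as far as reads are independent molecules. GENCODE v29 held 43245 of 49948 transcripts, and 99.2% of exons had its coordinates; GC content comes from its sequences. Blank lines (19) were left out.

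The 4 native libraries (935667 to 3135860 counts) were fitted with edgeR 4.0.16 (R 4.3.3): TMM, filterByExpr with a minimum count of 10, quasi-likelihood test, the peripheral protein as block, and a Benjamini-Hochberg adjusted p under 0.05, over all transcripts or exons. With the block 1 residual degree of freedom is left, so the spread is mostly the one shared across features. The pairing comes from the labels: both libraries of a pair hold the same peripheral protein. Standard errors (SE) are the log2 difference over the square root of F. Exon use was tested with diffSpliceDGE. The GC correction is an offset from a lowess curve (span 0.3) of each library's deviation on GC content; for exon use, counts were divided by it and rounded. Pair ratios are on log2 CPM, with 2 counts added as a prior, and centred on the median. On simulated counts the test found 46% of transcripts changed by a log2 of 1 and 95% of those changed by 2, and for exons 2% and 60%. The simulation had the same spread for all features, no GC trend and no difference between the peripheral proteins. Its rates need not hold for the real libraries. Alternatives used DESeq2 1.42.0 and limma 3.58.1; tables and plots used Python 3.11.15, pandas 2.3.3, numpy 2.4.6, scipy 1.17.1 and matplotlib 3.10.9.

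The comparison, the gene lists and the rule for named genes were chosen with earlier results of these data known. Named are the complex's 6 genes, the 12 largest differences in each direction with sides that do not overlap, an official symbol and a mean log2 CPM of 5 or more, up to 3 members of each list by p, 5 exons in each direction and 8 genes by exon use; 102 transcripts in all, of which fewer are printed.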

Additional observations from a re-analysis of the deposited data

How the results depend on the processing

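The 2383 transcripts called (1225 higher, 1158 lower) became 423 with the DESeq2 Wald test (304 higher, 119 lower), 733 with no replicate block (the peripheral protein left out of the model), 982 with the GC correction, 763 with the GC and length correction (379 and 384) and 0 with all footprint libraries in the fit, where 951 had an unadjusted p under 0.05. Without the block and MAGOH-CASC3, MAGOH-RNPS1 or CASC3-EIF4A3 in turn there were 189, 1 and 3748; with all footprint libraries in the fit, leaving out each of the 4 gave 0, with 110 to 237 at an unadjusted p under 0.05. The 9831 exons became 1506 at a mean count of at least 50, 731 with the Wald test, 2917 without the replicate block, 1411 with the GC correction (912 and 499), 2298 with GC and length (1366 and 932), 0 after thinning, 0 with all footprint libraries (3962 at an unadjusted p under 0.05 by edgeR) and, without the block, 5394 without MAGOH-CASC3, 134 without MAGOH-RNPS1, 6707 without CASC3-EIF4A3 and 3637 without RNPS1-EIF4A3. The 777 transcripts by exon use became 102 at the higher mean count, 348 without the replicate block, 8 with the GC correction and, in the same order of libraries left out, 75, 1, 23 and 6. The gap in GC content between the sides was 2.38 percentage points over transcripts and 4.39 over exons. DESeq2 size factors, no filter, limma-voom and leaving out ribosomal and small RNAs kept the transcript count within 1.5 times. A test of the difference between the pairs, added after seeing the data and run in the fit of all footprint libraries, called 0 of 12572 transcripts; with 21 at an unadjusted p under 0.05 by edgeR, it does not show that the pairs were alike. The cause of these shifts was not tested.

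Among named transcripts, those that changed sign had not been called, apart from RPPH1, the RNA subunit of RNase P, at 0.20 without CASC3-EIF4A3. CASC3 was 0.20 without CASC3-EIF4A3 and 0.17 without either library of its pair in the fit of all footprint libraries. EIF4A3 was 0.15 without MAGOH-RNPS1, 0.056 without RNPS1-EIF4A3, and 0.25 without either in the larger fit. MAGOHB was 0.12 with the GC correction and 0.19 with GC and length, and PAX2 -0.031 with GC and length. With 1 library per pair and side, the depth of CASC3-EIF4A3 limits what low transcripts can show.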

Other observations

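KCNQ1OT1 and UGDH-AS1, both called lower on the MAGOH side, were far higher in MAGOH-EIF4A3 than in either side: KCNQ1OT1 stood at 749 CPM there against 60.6 to 131.5 in the 4 compared libraries, and UGDH-AS1 at 418.5 against 29.6 to 110. The RNA-seq libraries held 562 and 534 CPM of KCNQ1OT1 and 174 and 164 of UGDH-AS1. MAGOH-EIF4A3 has no replicate, and no test was run.

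Replication-dependent histones were low in MAGOH-EIF4A3, at a summed 1986 CPM against 3843 and 3463 on the MAGOH side and 5197 and 4594 on the EIF4A3 side. These genes have no introns. HIST1H2AH, a core histone gene of 1 exon, had 139 and 149 CPM on the MAGOH side, 93.0 and 83.3 on the EIF4A3 side and 24.6 in MAGOH-EIF4A3, and HIST1H3D had 16.4 and 25.2, 12.8 and 7.17, and 2.66. Histone genes are near-identical copies of each other, so counts of single members are uncertain. Immediate early genes, mostly short, gave 743 CPM in MAGOH-EIF4A3 against 1350 to 1989 in the other native libraries, with JUN at 164 CPM against 245 to 462.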
